A study of Macaca mulatta with 38 samples.

Results

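A set of 570 lentiviral barcodes was found in 2 to 8 blood T cell libraries of a transplanted rhesus macaque, most often in 2, each at a low read share and none in B cells, granulocytes or monocytes. They were chosen by their counts from the 44423 barcodes of the deposited table. A member had reads in 2 or more of the 8 T libraries of day 119 or later, none in the T library of day 32 and none in any B, Gr or Mono library, and stayed below 0.2% of reads in every T library. The low shares, the later appearance and the restriction to T are therefore properties of the choice and not results. The cell types are those of the labels, which do not say how the cells were sorted. The table holds DNA tags and no genes, so the purity of the libraries could not be checked against marker genes.

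An integrating vector writes its barcode, a stretch of DNA that differs from copy to copy, into the genome of a stem or progenitor cell, and the tag passes to every descendant. T cells mature in the thymus from progenitors that leave the marrow, and a mature T cell clone can then persist and divide in the periphery without further supply from the marrow. Granulocytes and monocytes are short-lived and have to be replaced from the marrow all the time. A barcode in T cells alone can thus mark a lineage-restricted output, or a clone whose output in other lineages lies under the detection limit, and read counts do not tell these apart.

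All libraries came from peripheral blood of 1 animal, ZL34, a male of 4 years. Its CD34+ cells, mobilised with G-CSF and AMD1300 in the spelling of the labels, were transduced with a barcoded lentiviral library at a multiplicity of infection of 25 and returned after TBI (total body irradiation), and cidofovir was given each week at 5 mg/kg against CMV. The series has 38 libraries, with 9 labelled T, 8 B, 7 Gr (granulocytes), 7 Mono (monocytes), 5 nRBC (nucleated red cells), 1 EOS (eosinophils) and 1 CD34p (CD34+ cells). Each cell type and day has 1 library, so there is no replicate of a day, and days of 1 animal are serial samples. Reads of listed barcodes per library ran from 766039 in T of day 494 to 3832849 in an nRBC library. The smallest count above 0 in the whole table was 101. A 0 was therefore read as 100 reads or fewer, an inferred limit that equals 0.00289% of reads in T of day 553 and 0.0131% in T of day 494, the shallowest T library. A barcode with any reads in a library is called listed there.

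The sequences of 12 members and of 1 barcode just outside the cap are shown because the time courses below turn on them. Each is printed from its first base to the start of the sequencing adapter. The lower-case bases at the start are shared by the library, and the capitals mark the stretch that varies between barcodes. Names follow the order of the mean read share over all 38 libraries.
bc234: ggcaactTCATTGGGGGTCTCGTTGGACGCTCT
bc418: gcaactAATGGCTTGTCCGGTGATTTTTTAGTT
bc671: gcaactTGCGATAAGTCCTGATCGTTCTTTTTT
bc858: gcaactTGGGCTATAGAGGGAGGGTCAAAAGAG
bc1634: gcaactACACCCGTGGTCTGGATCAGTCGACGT
bc1803: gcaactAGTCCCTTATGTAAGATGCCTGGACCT
bc2812: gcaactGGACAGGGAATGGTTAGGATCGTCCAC
bc3177: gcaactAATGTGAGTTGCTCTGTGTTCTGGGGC
bc3550: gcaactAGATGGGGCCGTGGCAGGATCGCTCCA
bc3918: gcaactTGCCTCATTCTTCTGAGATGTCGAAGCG
bc5045: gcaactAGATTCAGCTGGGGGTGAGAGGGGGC
bc20998: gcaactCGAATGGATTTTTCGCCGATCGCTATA
bc144, outside the cap: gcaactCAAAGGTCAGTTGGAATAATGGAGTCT

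In make-up the members had values close to those of the whole table. Of the 570, 567 began with gcaact and 3, bc234 among them, carried 1 more g in front. The adapter followed after 33 bases in 441 members (77.4%), against 79.2% of all barcodes. The GC content of the varying stretch had a median of 51.9% in the members and 51.9% over all barcodes. The position of the adapter differed among the printed barcodes, with 32 bases before it in bc5045 and 34 in bc3918, whose adapter start itself had 1 edit.

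No member was a near copy of another line of the table. Over the first 33 bases, read in the same frame, the nearest other line lay 5 edits away for 1 member, 6 for 5 members, 7 for 79, 8 for 304, 9 for 172 and 10 for 9. In bc234 the nearest line was 7 edits away and in bc418 it was 8. Over the whole table, 0 lines lay within 1 edit of another, which is how the deposited lines stand and not a step taken here. Counted as substituted bases alone, the distance to the nearest other line had a median of 10 in the members and 10 over all barcodes. The separation is thus a property of the whole table and not of the members.

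Recurrence in T without any listing elsewhere was uncommon. Of all 44423 barcodes, 15.2% (6774) were listed in 2 or more T libraries of day 119 or later. Of these 6774, 5984 were also listed in a B library and 4783 in a Gr or Mono library. A further 5 barcodes were absent from B, Gr and Mono but present in T of day 32, which listed 525 barcodes in all. That left 571, of which 1, bc144, exceeded the cap, so the 570 members were 8.41% of the recurrent T barcodes. The share of members among recurrent barcodes was 13.9% (439 of 3147) for those listed in exactly 2 T libraries, 6.35% (89 of 1402) for 3, 2.68% (20 of 745) for 4 and 0.692% (2 of 289) for all 8. The number of members rested most on day 119, since 297 were left when that library was not counted, and 422 to 565 when any other T day was left out.

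Most members lay close to the detection limit. They had 1356 listings in T and 342282 reads in all. A listing had a median of 153 reads with quartiles of 121 and 248, against a median of 177 over all barcodes in the same libraries. Of the listings, 872 (64.3%) had 200 reads or fewer, against 57.4% over all barcodes. The total reads of a member ran from 208 to 11928 with a median of 367, and the 10 members with the most reads held 17.7% of the set's reads. The highest share a member reached in any T library had a median of 0.00688%, and 531 of the 570 stayed under 0.02%. Only bc234 and bc418 reached 0.1%.

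The listed members held more reads each at day 187 than on other days. Their median was 539 reads there, against 122 to 207.5 reads on the other 7 days. All barcodes of that library had a median of 554 reads as well, and its smallest count was 105. The library of day 187 had 2158 barcodes listed and 3210053 reads, against 8450 barcodes and 2930353 reads at day 119.

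Summed over members, the set made up between 0.791% and 2.54% of T reads. Its share on days 119, 187 and 266 was 2.54% (exact 95% interval 2.52 to 2.56%, for counting error only), 2.30% and 1.40%. On days 365, 393, 494, 536 and 553 it was 1.02%, 1.47%, 0.908%, 1.497% and 0.791%. The highest values were thus at the first days and the lowest at the last day. Across the 8 days Pearson's r with day was −0.832 and Spearman's rho −0.690. Both are descriptions with no test, since reads in these same libraries chose the members. Without days 119 and 187, the farthest from the median day, r was −0.387, so the fall rests on those days. When a listing needed 0.0131% of reads in every library, the highest detection limit of any T, B, Gr or Mono library, the rule chose 246 barcodes, 36 of them members, and their rho was −0.119.

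A read share falls when other barcodes in the library rise. The 6 barcodes that led the nRBC libraries by mean share took up 0.413%, 0.616%, 5.40% and 14.4% of T reads on days 119, 187, 266 and 365, and 2.92%, 3.98%, 13.1% and 48.9% on days 393, 494, 536 and 553. Of the reads outside those 6, the members held 2.55%, 2.32%, 1.48% and 1.19% on the first 4 of these days and 1.51%, 0.945%, 1.72% and 1.55% on the last 4. On this scale, which was added after the values were seen, day 494 was lowest instead of day 553, and rho with day was −0.357.

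The number of members listed varied with the library. On days 119, 187, 266 and 365 it was 355, 121, 185 and 106 of the 570. On days 393, 494, 536 and 553 it was 238, 27, 208 and 116. Day 494 stood lowest, and there a 0 can hide up to 0.0131% of reads, against at most 0.00458% in the other T libraries from day 119 on. The members were 2.65% of the barcodes listed at day 494, 5.61% at day 187 and 3.003% to 4.53% on the other 6 days. The number listed had a rho of −0.381 and an r of −0.514 with day, given as a description, and r was −0.273 without days 119 and 187.

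First listings of members ran through day 536. Of the 570, 355 (62.3%) were first listed at day 119. First listings on days 187, 266, 365, 393, 494 and 536 numbered 58, 73, 25, 44, 5 and 10. The library of day 119 also listed the most barcodes of any kind, 8450. Those of days 187 and 494 listed the fewest, 2158 and 1019. A member needs 2 listings, so none could be first listed at day 553, and a late first day leaves fewer libraries in which to recur. The last listing was at day 536 in 175 members and at day 553 in 116, together 51.1% of the set. Last listings on days 187, 266, 365, 393 and 494 numbered 34, 67, 40, 134 and 4. First and last days were not taken for the other recurrent T barcodes. With most listings near the detection limit, they do not show when a clone appeared or was lost.

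Most members had only the 2 listings that the rule asks for, often many days apart. Of the members, 439 (77.0%) were listed in 2 T libraries, 89 in 3, 20 in 4, 9 in 5, 7 in 6, 4 in 7 and 2 in all 8. Of all 6774 recurrent T barcodes, 3147 were listed in exactly 2 and 289 in all 8. The span from the first to the last listing had a median of 270 days and quartiles of 147 and 417. It ran from 17 to 434 days, and 59 members were listed at both day 119 and day 553. Spans depend on the days sampled, and none were taken for the other recurrent T barcodes. In 474 members at least 1 T library between the first and the last listing held no reads, and 96 (16.8%) had no such gap. The most common pattern was day 119 with day 393 alone, in 69 members, followed by day 119 with day 536 in 61 and day 119 with day 266 in 51.

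The number of listings went with the height of the peak. The peak is the highest of the same listings that are counted, so this relation is partly built in and was not tested. Of the 258 members whose highest count was 101 to 200 reads, 29 (11.2%) were listed in 3 or more T libraries. The fraction was 44 of 196 (22.4%) for 201 to 500 reads, 40 of 96 (41.7%) for 501 to 1000 and 18 of 20 for more than 1000. The 131 members of 3 or more libraries held 49.3% of the set's reads, and the 42 of 4 or more held 31.3%. A gap in a member near 100 reads can be a fall below the limit, and loss and low level cannot be told apart there.

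From 1 T library to the next, 7.14% to 77.8% of the members listed were listed again. Of those listed at day 119, 63 of 355 (17.7%) recurred at day 187, against 11.6% of the other barcodes of that T library. On the 6 later steps the percent was lower in the members than in the other T barcodes. The step from day 365 to day 393 gave 48 of 106 (45.3%) against 58.5%, and that from day 536 to day 553 gave 33 of 208 (15.9%) against 32.3%. Into day 494 only 17 of 238 members (7.14%) recurred, against 15.4%, and out of it 21 of 27 (77.8%) against 83.3%. These percentages are partly set by the choice of members and were not tested.

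The 2 members listed in all 8 T libraries both had their highest share at day 119. bc418 had 3464, 3043, 1341 and 842 reads on days 119, 187, 266 and 365, then 1466, 220, 777 and 249 on days 393, 494, 536 and 553. Its share was 0.118% at day 119 (exact 95% interval 0.114 to 0.122%) and 0.00719% at day 553, with a mean of 0.0501% ± 0.0374 (SD, n = 8 days). bc1634 had 1660, 1733, 322, 414, 715, 136, 225 and 323 reads on the same days, a mean of 0.0246% ± 0.0197. Both were lower at day 553 than at days 119 and 187.

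bc858 and bc3177 were listed in 7 T libraries each. bc858 had 2545 reads at day 119, 0 at day 187, then 1372, 975, 1055, 224, 490 and 619, with a mean of 0.0338% ± 0.0261 (SD, n = 8 days). It was thus missing only from the library of day 187, where its reads on both neighbouring days were over 1000. bc3177 had 361, 1022, 322, 415, 358, 0, 171 and 695 reads, with its only 0 in the shallow library of day 494, its highest share at day 187, and a mean of 0.0138% ± 0.00980.

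A second kind of course peaked late. bc234 was not listed at days 119 and 187, had 353 reads at day 266, and then 2777, 3474, 1201, 3909 and 214 at days 365, 393, 494, 536 and 553. Its share was 0.157% at day 494 (exact 95% interval 0.148 to 0.166%), the highest of any member, and 0.00618% at day 553. bc671 had 0 reads at day 119 and 1028, 340, 311, 1019, 725, 2556 and 1375 from day 187 on, with its highest share of 0.0946% at day 494. Both held their largest shares at days 494 and 536, or in bc234 also at days 365 and 393, and not at the first days.

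bc144, the barcode just outside the cap, followed a course like that of bc234. It had 0 reads at day 119 and then 520, 1051, 1960, 3809, 2063, 4953 and 1161. Its share reached 0.269% at day 494, where 1 read weighs most. It met every other condition of the rule and was the only barcode above the cap that did. Just inside the cap stood bc234, bc418 and bc671 with highest shares of 0.157%, 0.118% and 0.0946%.

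bc1803 and bc2812 peaked at day 187. bc1803 had 291, 2279 and 1061 reads on days 119, 187 and 266, then 188, 318, 266, 0 and 566, and its share at day 187 was 0.0710%. bc2812 had 0 reads at day 119, 1698 at day 187, then 108, 186, 522, 274, 196 and 0, with 0.0529% at day 187. In both, every later share was lower than that of day 187.

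Among members first listed at day 365 or later, those with the most reads for their first day had at most 1037 reads in any library. bc5045 was first listed at day 365 with 617 reads, and had 354, 0, 938 and 0 reads on the 4 later days. bc3918 was first listed at day 393 with 476 reads and had 282, 1037 and 159 at days 494, 536 and 553. bc3550 was first listed at day 494 with 565 reads and had 566 at day 536 and 235 at day 553. bc20998 was first listed at day 536 with 117 reads and had 349 at day 553. Of these 4, bc5045 alone was not listed on the last day.

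No member was listed outside T in the libraries that the rule did not use. The 5 nRBC, the EOS and the CD34p libraries each listed 0 of 570 members. This is near the background, since only 0.529% of all barcodes were listed in any of these 7 libraries, and each listed 9 to 201 barcodes. A 0 there allows 0.00261% to 0.00283% of reads, so these libraries could not have shown output below that level.

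Whether the restriction to T held in libraries that had no part in the choice was asked day by day. On each day from 119 on, barcodes were chosen again by the same rule from the libraries of all other days, which gave 337 to 607 barcodes. The percent of them listed in the libraries of the day left out was then taken. The chosen sets of different days overlap, and the days belong to 1 animal.

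Barcodes so chosen recurred in the T library left out on all 8 days, in 4.22% to 28.8% of cases. On days 119, 187, 266 and 365 the percent was 28.8%, 9.23%, 14.8% and 10.1%, and on days 393, 494, 536 and 553 it was 22.3%, 4.22%, 17.5% and 8.40%. Over the days this was 529 of 3973, or 13.3%, against 9.34% of the barcodes not chosen. The chosen barcodes exceeded the others on 8 of 8 days, by little at day 553 (8.40% against 7.06%). The chosen needed 2 or more listings in the other T libraries, and the others did not. Of all barcodes, only 17377 were listed in any T library of day 119 or later, so the others include many never seen there. The choice itself therefore favours this excess, which does not show that the chosen recur more than other recurrent T barcodes. That comparison was not made.

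They were seldom seen in the myeloid libraries of the day left out. In Gr 0% to 2.25% of them were listed, 20 of 3067 over 6 days (0.652%), and in Mono 0% to 1.32%, 16 of 3067 (0.522%). The barcodes not chosen were listed in 4.44% in Gr and 2.95% in Mono. On days 365, 494 and 553 the Gr and Mono libraries listed few barcodes of any kind, with at most 0.447% of the others, so a higher percent in T was nearly fixed there. Day 119 also favoured T, since 18.9% of the others were listed in T, 4.56% in Gr and 1.83% in Mono. On day 187 the others were listed less in T than in Gr or Mono. On day 266 they were listed less in T than in Gr but more than in Mono. On days 119, 187 and 266, the percent in T exceeded that in Gr by a mean of 16.2 points (SD 10.1, n = 3) and that in Mono by 16.6 points (SD 10.3, n = 3), on 3 of 3 days each. With the percent of other barcodes listed taken off in each library, these differences were 13.6 points (SD 0.647) and 11.0 points (SD 0.985). The others hold every barcode listed in Gr or Mono on another day, so the choice itself favours a positive sign here. The restriction to these days was made after the values were seen, and 3 days allow no exact permutation p below 0.25.

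Over all 6 shared days, T exceeded Gr on 6 of 6 days, with a mean difference of 11.9 points (SD 8.16, n = 6; two-sided exact sign-flip permutation p = 0.0312, adjusted p = 0.0469 over 3 lineages). It exceeded Mono by 12.1 points (SD 8.38, n = 6), also on 6 of 6 days (exact permutation p = 0.0312, adjusted p = 0.0469). With the other barcodes taken off, the differences were 7.78 points for Gr and 6.46 for Mono (exact permutation p = 0.0312, adjusted p = 0.0312 each). These p-values are the smallest that 6 days allow and include the 3 days on which the direction was nearly fixed. With the other barcodes taken off, the choice itself also favours the sign. Without any 1 of the days neither difference passed, since 5 days allow no p below 0.0625.

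On every day left out some of the chosen barcodes were listed in B, and T was not shown to exceed B. By the choice they had no B listing on any other day. On days 119, 187, 266 and 365 the B libraries listed 10.7%, 16.6%, 5.12% and 4.98% of them, and on days 393, 494 and 553 9.64%, 0.527% and 5.15%. Over the 7 days this was 264 of 3534 (7.47%), against 20.1% of the barcodes not chosen. T exceeded B on 6 of 7 days, with a mean difference of 6.44 points (SD 8.12, n = 7). This missed the threshold, with an exact permutation p of 0.0938 before and after adjustment. The exception was day 187, where 56 of 607 barcodes were listed in T and 101 in B.

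The difference from B passed when barcodes with more listings in T were chosen. With 3 or more listings in the other T libraries, 27.6% were listed in T and 9.29% in B on average, a difference of 18.3 points (SD 11.9, n = 7 days), on 6 of 7 days (exact permutation p = 0.0312, adjusted p = 0.0312). With the percent of other barcodes listed taken off in each library, the difference between T and B was 17.3 points on the main choice and in favour of T on 7 of 7 days (exact permutation p = 0.0156, adjusted p = 0.0312, n = 7). It came from a mean of 4.77 points in T and −12.5 points in B. The others hold every barcode listed in B on another day, so the choice itself favours this sign. That result therefore does not show that T exceeds B. The choice with 3 or more listings asks for more listings in T and for none in B on the other days. It therefore favours the same sign. It covers only barcodes that recur in T that often, and the members of exactly 2 libraries, 77.0% of the set, fall outside it.

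A barcode with no listing outside T is also separated by a thin margin from those with 1. There were 632 recurrent T barcodes with exactly 1 listing in all B, Gr and Mono libraries and none in T of day 32, more than the 570 members. That 1 listing was in B for 484 of them, in Mono for 85 and in Gr for 63. It had a median of 134 reads, and 483 of the 632 (76.4%) had 200 reads or fewer there. On the other edge of the rule, 2899 barcodes of T alone were listed in 1 T library of day 119 or later. Their listing had a median of 134 reads, and 82.8% had 200 reads or fewer.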

How the data were processed

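The authors deposited a single table that gives a read count for each 50-base sequence in each of 38 libraries. No header states the unit. The values are whole numbers, and the column sums differ. The barcode retrieval PCR ran for 28 cycles on 200 ng of DNA, per the labels' protocols. The sources used here do not give how barcodes were called, merged or dropped for low counts. The labels name no batch, and no pair of libraries held identical values. No collapsing by molecular identifiers was done here, and whether any was done before deposit is not given. Intervals therefore cover counting error only.

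Counts were used as deposited and shares are percent of the column sum. Members and measures were chosen with earlier results of these data known. The rule for named barcodes took the 8 members with the highest mean share over the 8 T libraries, the 4 listed most often, the member with most reads for each first day, and those nearest the 0.2% cap. Parts of that rule for members listed in nRBC, EOS or CD34p, or 1 edit from a larger line, named none. Edit distances were computed with edlib 1.3.9.post1, and permutation tests enumerated all orders or signs in Python 3.11.15 with numpy 2.4.6, after the code was tested on simulated data. Relations of the members with day in T had been planned as tests and are given as descriptions, since the same counts chose the members. Benjamini-Hochberg adjustment was used, and calls were made at an adjusted p under 0.05. Alternatives were other caps, 3 libraries, a common share floor, summed lines and each day left out.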

Additional observations from a re-analysis of the deposited data

Results flagged for a closer look

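Of 19 sets of values over days, 2 held a day far from the others. The usual rate of about 1 set in 20 by chance does not apply to these 2. Both are barcodes named for a late first day, so their earlier values are 0 by that choice. A lone high day is therefore partly built in. The share of bc3550 in T was 0.0738% at day 494, while its next highest was 0.0184% at day 536 and it was not listed on 5 of 8 days. That library has the fewest reads in T, and the counts behind the shares were 565 and 566 reads. The share of bc20998 was 0.0101% at day 553, with 0.00380% at day 536 and no listing on the other 6 days.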

How the results depend on the processing

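The number of members was 131 with 3 or more T libraries, 246 when a listing needed the common share floor of 0.0131% (the highest detection limit of any T, B, Gr or Mono library), and 297 to 565 with 1 T day left out. It was 571 with no cap, 574 with any count allowed at day 32 and 570 with lines summed. Only 36 of the 246 were members, since that floor also hides small listings outside T. With the floor, T exceeded B by 35.4 points (exact permutation adjusted p = 0.0312, n = 7). The difference was 18.3 with 3 libraries and 17.3 with the other barcodes taken off, and these 3 settings alone passed. In each of these 3 the choice itself favours that sign. With the floor, B listed 8.54%, 5.50% and 8.24% of the chosen on days 119, 187 and 266. It listed 4.69%, 3.27% and 3.98% of the others on those days. On days 365, 393, 494 and 553 the chosen were listed less often in B than the others. Leaving out 1 day, the difference was 4.49 to 8.74 from B, 8.73 to 13.4 from Gr and 8.88 to 13.6 from Mono. On days 119, 187 and 266 alone it was 16.2 from Gr and 16.6 from Mono, or 13.6 and 11.0 with the other barcodes taken off, and did not pass. The summed share had rho of −0.893 to −0.536 against day with 1 day left out, and −0.119 with the floor. As a percent of the barcodes listed, a measure added after the data were seen, the number of members had rho of −0.429. All of these kept their direction. Reads near the limit of 100 restrict what a 0 can show. Lineages were compared within days, the matched unit; the labels give no replicate numbers.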

Other observations

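With T and B exchanged, the same rule found 1878 B-only barcodes. Of these, 1338 (71.2%) were listed in 2 B libraries, 366 in 3 and 16 in 6, and none in all 7 B libraries from day 119 on. When they were chosen without each day in turn, 4.43% to 33.8% were listed in the B library of that day and 0.162% to 13.1% in its T library. B was the higher on all 7 days, and this was not tested. Of the barcodes that the T rule left unchosen, 7.51% to 30.5% were listed in the B libraries left out. In the T libraries left out it was 2.27% to 18.9% of them. The percentages of B-only barcodes in B were thus near those of these other barcodes. In T they were lower than those of the others on all 7 days, with 13.1% against 18.9% at day 119. The others here are those left by the T rule, and they hold barcodes listed in T on other days. The choice itself therefore favours this difference, and a restriction to B was not tested.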
